A study of Mus musculus with 24 samples.

Results

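The potassium channel genes were taken as every gene of the deposited annotation whose symbol starts with Kcn followed by a letter, without Kcnj8 and Kcnj11, the 2 pore genes of the ATP-sensitive channel. The rule used names alone and found 75 genes of the 20961 listed. Of these, 66 passed the filter on low counts and were tested among 17203 genes. The other 9 (Kcnb2, Kcng1, Kcnh8, Kcnj13, Kcnk4, Kcnk7, Kcnmb4, Kcns1 and Kcnu1) had too few reads to be tested, and a further 26 of the tested members had a mean of 1 CPM or less (CPM are counts scaled to the summed tested genes of a library).

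RNA was measured in mouse heart in 24 libraries. They came from wild-type C57BL/6J, CAST/EiJ and NZO/HlLtJ animals, with females and males of each strain kept from week 6 on a diet of 10% fat with fiber (the control diet) or 44% fat with fiber (the high fat, high sugar diet) until tissue was taken at week 15. C57BL/6J is a widely used laboratory strain, CAST/EiJ was inbred from wild-caught mice, and NZO/HlLtJ mice are prone to obesity. Each of the 12 combinations of strain, sex and diet had 2 libraries, so each strain had 8, and no group had a mutation or drug. The labels do not say which part of the heart was taken, nor whether animals were pooled.

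Summed expected counts ranged from 30205073 to 52254058 per library. All 9 cardiomyocyte markers listed (Myh6, Tnnt2, Ttn and others) were abundant: their summed level lay between 61600 and 77300 CPM in every library. Atrial markers summed to 768 to 3140 CPM. Of all 24, the first male CAST/EiJ library on 10% fat was the richest in white and brown adipocyte markers, and the first female CAST/EiJ library on 44% fat was the richest in endothelial markers. The numbers in the library names fell into 3 runs, here called identifier ranges: the first held only C57BL/6J and CAST/EiJ, and the other two split the strains unevenly over sex and diet. The labels do not say what the ranges stand for.

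Potassium channels let potassium ions leave a heart cell and so end each action potential and hold the resting voltage. Voltage-gated alpha subunits assemble as tetramers, and in the mouse ventricle the Kv4 channels that carry the fast transient outward current dominate early repolarization. Inward rectifiers hold the resting potential, acetylcholine-activated channels slow the atria and sinus node, and two-pore channels pass a steady background current. Accessory subunits, which form no pore, set how many channels reach the membrane and how fast they open and close.

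The sequence that makes these proteins potassium channels was present in every pore-forming gene of the set. A stretch of 5 codons lines the narrowest part of the pore, the selectivity filter. A search of the longest GENCODE coding sequence found 1 such stretch in each of the 16 Kv1 to Kv4 genes, the 7 silent voltage-gated genes, the 6 EAG and ERG genes, the 5 KCNQ genes, the 9 inward rectifiers and the 8 calcium- or sodium-activated genes. All 8 two-pore genes had 2 stretches, and the 13 accessory genes and Kcnrg had 0. The 45 reference bases around the filter are shown for genes on which the strain results turn, with the 15 filter bases in capitals; they read from 5′ to 3′ on the coding strand and come from the GRCm38 transcripts.
Kcnd2: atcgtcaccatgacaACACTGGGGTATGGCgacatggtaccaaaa
Kcnd3: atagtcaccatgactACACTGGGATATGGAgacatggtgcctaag
Kcnv2: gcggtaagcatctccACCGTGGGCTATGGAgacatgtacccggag
Kcnj2: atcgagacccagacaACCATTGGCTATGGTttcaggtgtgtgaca
Kcnj14: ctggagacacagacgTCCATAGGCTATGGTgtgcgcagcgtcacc
Kcnj3: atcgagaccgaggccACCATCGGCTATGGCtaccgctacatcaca
Kcnk3 first pore: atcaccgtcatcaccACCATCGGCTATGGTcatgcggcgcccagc
Kcnk3 second pore: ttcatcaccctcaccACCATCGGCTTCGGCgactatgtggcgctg
The capitals of Kcnd2 start at codon 370 and those of Kcnd3 at codon 367; the silent subunit Kcnv2 keeps the stretch at codon 474. These are reference bases, and no CAST/EiJ or NZO/HlLtJ sequence was used here.

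Levels of different genes were compared only per length, as CPM per kb of exonic sequence (untranslated parts included). The 6 highest genes over all libraries were the same in each strain. Kcnk3, the acid-sensitive two-pore channel TASK-1, ranked first with 57.6 CPM per kb in C57BL/6J, 57.2 in CAST/EiJ and 62.1 in NZO/HlLtJ. Kcnip2, the Kv4 accessory subunit KChIP2, ranked second in each strain, at 36.3, 40.8 and 24.6 CPM per kb in the same order. The acetylcholine-activated channel genes Kcnj3 and Kcnj5, the silent subunit Kcng2 and the ERG gene Kcnh2 took ranks 3 to 6. Between Kcnj3, Kcng2 and Kcnj5 the ranges over libraries overlapped in every strain: in C57BL/6J they spanned 18.1 to 27.2, 17.7 to 24.4 and 14.8 to 21.7 CPM per kb. The genes were read in the same libraries, so overlap of these ranges does not settle their order. That order was not tested within libraries.

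Strain was the comparison in which many of these genes differed, as did many genes at large. Both members and all genes were called most often in the comparisons with CAST/EiJ. Between CAST/EiJ and C57BL/6J, edgeR's quasi-likelihood test called 44 of 66 members at an adjusted p under 0.05 (Benjamini-Hochberg over all tested genes), or 66.7%. The share over all genes tested was 58.8%. Of the 44, 28 were lower in CAST/EiJ, beside 29.7% of all genes, and 16 were higher, beside 29.1%. Between NZO/HlLtJ and CAST/EiJ, 43 members were called, or 65.2%, beside 60.3% of all genes. Of these 30 were higher in NZO/HlLtJ, where 30.5% of all genes were, and 13 were lower, where 29.8% were. Between NZO/HlLtJ and C57BL/6J, 26 members were called, or 39.4%, beside 35.5% of all genes. Of these 18 were higher in NZO/HlLtJ and 8 lower, beside 17.9% and 17.6% of all genes. The 3 strain comparisons share libraries and are not independent of each other.

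The median direction and size of the members' differences stood apart from those of all genes. The median log2 fold change of CAST/EiJ over C57BL/6J was -0.29 over the 66 members and 0 over all genes, and the median size without sign was 0.75 against 0.31. For NZO/HlLtJ over CAST/EiJ the medians were 0.31 and 0, with sizes of 0.63 and 0.31. For NZO/HlLtJ over C57BL/6J they were 0.07 and 0, with sizes of 0.29 and 0.18. The larger sizes were not particular to strain. Where no member was called they were 0.11 against 0.06 for diet over the 3 strains and 0.14 against 0.06 for sex. The part of the members' levels in these sizes was not tested. A split by strain found 12 members lower in CAST/EiJ than in both other strains, with no call between the other strains (18.2% of members and 14.4% of all genes); 8 were higher in CAST/EiJ than in both (12.1% and 14.7%). The members called in all 3 comparisons numbered 16, or 24.2% beside 16.8% of all genes, and 14 were called in none, or 21.2% beside 24.7%.

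All 8 libraries of one strain lay apart from all 8 of the other for 17 members between CAST/EiJ and C57BL/6J, or 25.8%, beside 27.0% of all genes. Of these 17, 15 were lower in CAST/EiJ. Between NZO/HlLtJ and CAST/EiJ this held for 24 members, or 36.4%, beside 26.8% of all genes, and 21 of them were higher in NZO/HlLtJ. Between NZO/HlLtJ and C57BL/6J it held for 8 members, or 12.1%, beside 12.2%. The shares of all genes were counted in either direction together, so the directions given here are not read as particular to the members.

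**Figure D1:**
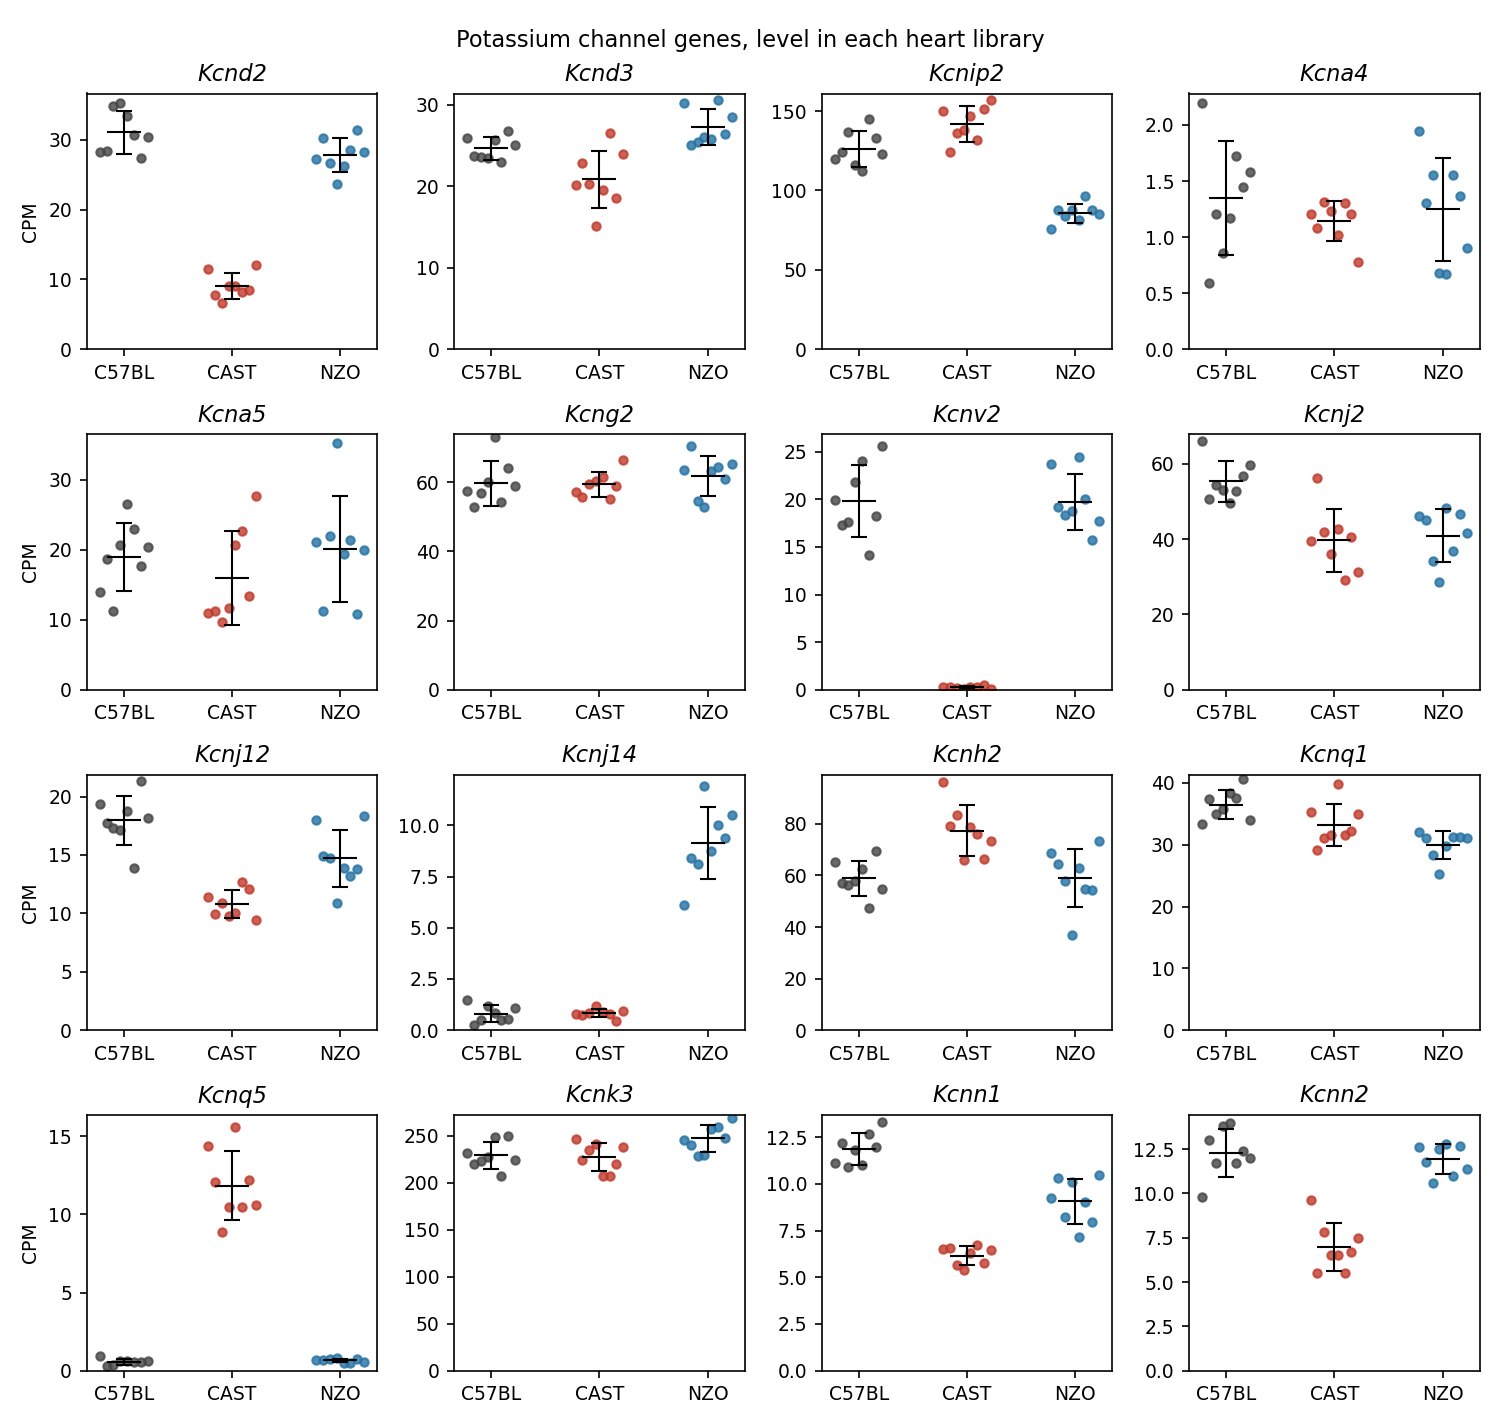
Level (CPM, linear axis from 0) of 16 potassium channel genes in each of the 24 heart libraries, by strain (8 points each); the black bars mark the mean and SD. Kcnv2 and Kcnd2 are low in all 8 CAST/EiJ libraries, Kcnq5 is high in the same 8, Kcnj14 is high in all 8 NZO/HlLtJ libraries, and Kcng2, Kcna4 and Kcna5 overlap between strains.

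The Kv4 channel of the fast transient outward current differed between strains in both its pore and its accessory subunit, with the largest fall in different strains. Kcnd2, the Kv4.2 pore subunit (chromosome 6, 21215503 to 21729805, plus strand), ran from 27.4 through a median of 30.5 to 35.2 CPM in C57BL/6J, from 6.59 through 8.76 to 12 in CAST/EiJ, and from 23.7 through 27.8 to 31.4 in NZO/HlLtJ. The 8 CAST/EiJ libraries were all below every library of the other strains. The means were 31.0 ± 3.06 (SD, n = 8), 9.07 ± 1.83 and 27.8 ± 2.38 CPM, a fall in CAST/EiJ of 3.45-fold against C57BL/6J (log2 fold change -1.79, SE 0.07, adjusted p = 5.66e-14). The difference between NZO/HlLtJ and C57BL/6J was small and not called (-0.16, SE 0.06, adjusted p = 0.0677). It was called in a fit of those strains alone (adjusted p = 0.0135), with limma-voom (0.0357) and with limma on the deposited variance-stabilized values (0.0424), each time with NZO/HlLtJ the lower.

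Kcnip2 (chromosome 19, 45791839 to 45816061, minus strand) was lowest in NZO/HlLtJ, where it ran from 75.4 through 86.2 to 96.4 CPM. It ran from 112 through 123 to 145 CPM in C57BL/6J and from 124 through 143 to 157 CPM in CAST/EiJ. Every NZO/HlLtJ library was below every other library, while C57BL/6J and CAST/EiJ overlapped. The means were 85.6 ± 6.07, 126 ± 11.3 and 142 ± 11.1 CPM. Against C57BL/6J the log2 fold change was -0.56 in NZO/HlLtJ (SE 0.05, adjusted p = 3.47e-08) and 0.17 in CAST/EiJ (SE 0.05, adjusted p = 0.00494). The CAST/EiJ difference was not called within any of the 3 identifier ranges taken alone.

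Kcnd3, the Kv4.3 pore subunit, differed less, with means of 24.7 ± 1.36 CPM in C57BL/6J, 20.9 ± 3.53 in CAST/EiJ and 27.3 ± 2.21 in NZO/HlLtJ. The fall in CAST/EiJ against C57BL/6J was 0.24 on the log2 scale (-0.24, SE 0.08, adjusted p = 0.0191), and the call was lost without the first male CAST/EiJ library on 10% fat or the second female CAST/EiJ library on 44% fat. The gene overlaps Kcnd3os on the other strand, and whether counting used strand is not known here. Kcnd1, the remaining Kv4 gene, averaged 0.891 CPM in C57BL/6J, 0.599 in CAST/EiJ and 0.74 in NZO/HlLtJ, and was called only for CAST/EiJ against C57BL/6J (-0.57, adjusted p = 0.0122). The Kcnd1 call was lost without the second male C57BL/6J library on 10% fat and within each identifier range alone. It was also lost without the 2 CAST/EiJ libraries rich in adipocyte or endothelial markers. Kcna4, which carries the slow transient outward current, was at 1.35 ± 0.507, 1.14 ± 0.177 and 1.25 ± 0.456 CPM and was called in no strain comparison.

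The pore and its accessory subunit fell most in different strains, and their ratios differed. These ratios were formed after the values had been seen, so their tests describe a difference already visible. Per kb of exon, Kcnd2 stood to Kcnd3 as 2.35 ± 0.313 in C57BL/6J (from 1.9 to 2.78), 0.829 ± 0.209 in CAST/EiJ (0.569 to 1.12) and 1.91 ± 0.218 in NZO/HlLtJ (1.68 to 2.24). Kcnip2 stood to the sum of Kcnd2 and Kcnd3 as 4.24 ± 0.508 in C57BL/6J (3.52 to 4.99), 10.5 ± 1.34 in CAST/EiJ (8.76 to 12.1) and 3 ± 0.254 in NZO/HlLtJ (2.57 to 3.44). In an exact two-sided permutation test of 8 against 8 libraries, 5 of the 6 strain differences reached the smallest p possible, 0.000155 (0.000186 adjusted over the 6). The sixth, Kcnd2 to Kcnd3 in NZO/HlLtJ against C57BL/6J, was a log2 difference of -0.3 (exact permutation p = 0.00591, adjusted p = 0.00591), and overlapped. All 6 kept their sign within each identifier range that held both strains, although that sixth one was -0.38 in one range and -0.11 in the other.

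**Figure D2:**
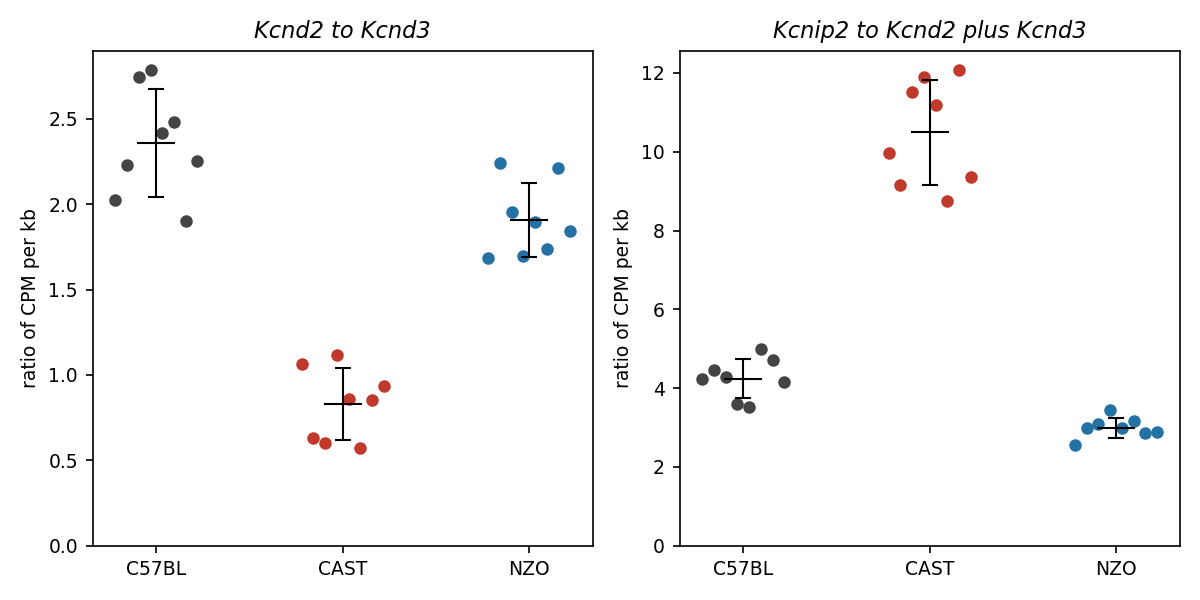
Ratio of CPM per kb of exon in each library, by strain (8 points each; black bars, mean and SD): Kcnd2 to Kcnd3 on the left and Kcnip2 to the sum of both on the right. CAST/EiJ libraries lie lowest on the left (0.569 to 1.12) and highest on the right (8.76 to 12.1), with no overlap with the other strains.

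The partners of these channels were read from a list of 21 known auxiliary proteins, scaffolds and regulators, of which 20 were tested. In CAST/EiJ against C57BL/6J, 12 rose and 3 fell, where 29.1% of all genes rose and 29.7% fell. In NZO/HlLtJ against C57BL/6J, 4 rose and 3 fell, where 17.9% and 17.6% of all genes did. In NZO/HlLtJ against CAST/EiJ, 4 rose and 10 fell, where 30.5% and 29.8% did. Dpp6, a membrane protein that speeds Kv4 channels in neurons, had the largest change: 0.173 CPM on average in C57BL/6J, 3.4 in CAST/EiJ and 0.188 in NZO/HlLtJ, a log2 fold change of 4.33 in CAST/EiJ (SE 0.34, adjusted p = 5.35e-09). The Iroquois factor Irx5, a known repressor of Kcnd2 in the mouse ventricle, averaged 4.86 CPM in C57BL/6J, 6.4 in CAST/EiJ and 3.25 in NZO/HlLtJ, with log2 fold changes of 0.4 in CAST/EiJ and -0.59 in NZO/HlLtJ (adjusted p = 0.00414 and 0.00039). Irx3, which acts in the fast conduction system, went the same way, by 0.4 and -0.47. Whether these factors bear on Kcnd2 in these hearts was not tested.

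The RefSeq promoter window of Kcnd2, the Kv4 pore gene with the largest strain difference, is shown for GRCm38.p6 (chr6:21215096-21215395, plus strand, 250 bases before the RefSeq start to 50 after it, upstream of the start in the deposited annotation). Capitals mark the 1 match to the GC box GGGCGG.
Kcnd2 promoter: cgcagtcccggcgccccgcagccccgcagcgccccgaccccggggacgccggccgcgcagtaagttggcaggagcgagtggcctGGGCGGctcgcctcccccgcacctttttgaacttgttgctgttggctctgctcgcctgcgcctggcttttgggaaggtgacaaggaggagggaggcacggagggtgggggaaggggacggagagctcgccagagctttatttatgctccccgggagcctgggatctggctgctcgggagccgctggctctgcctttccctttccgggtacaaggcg
Windows of 300 bases were matched for 54 of the 75 members, with 73 starts. On either strand GGGCGG was in 49.3% of the members' windows and 35.7% of all 32851, CCAAT in 35.6% and 37.4%, TATAAA in 4.11% and 13.6%, the GATA motif AGATAA in 4.11% and 11.2%, and the Iroquois motif ACANNTGT in 9.59% and 7.38%. Overlaps between motifs were not removed. The Kcnd2 window held none of the others.

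Among the delayed rectifiers a silent subunit was close to absent in one strain. Silent subunits form no channel alone and join other voltage-gated pores, whose kinetics they change. Kcnv2, the Kv8.2 silent subunit (chromosome 19, 27322588 to 27337179, plus strand), ran from 14.2 through 19.1 to 25.6 CPM in C57BL/6J and from 15.7 through 19 to 24.5 in NZO/HlLtJ. In CAST/EiJ it ran from 0.0737 through 0.254 to 0.483 CPM. No CAST/EiJ library came near those of the other strains, and those of the other strains overlapped throughout. Against C57BL/6J, CAST/EiJ was 86.7-fold lower (log2 fold change -6.44, SE 0.13, adjusted p = 6.64e-18), and NZO/HlLtJ did not differ detectably (0 on the log2 scale, SE 0.08, adjusted p = 0.981).

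Kcng2, another silent subunit and among the most abundant members per kb, was at 59.7 ± 6.41, 59.4 ± 3.63 and 62.0 ± 5.79 CPM. Its log2 fold changes were 0 in CAST/EiJ and 0.05 in NZO/HlLtJ (SE 0.05 each), and it was called in no strain comparison. Kcns3, a silent subunit near 0.2 CPM elsewhere, was at 1.03 ± 0.267 CPM in CAST/EiJ (log2 fold change 2.29, SE 0.26, adjusted p = 3.56e-07).

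Kcna5, the Kv1.5 pore of the ultrarapid current, ran from 11.2 to 26.5 CPM in C57BL/6J, 9.62 to 27.7 in CAST/EiJ and 10.8 to 35.2 in NZO/HlLtJ, and was not called between strains over all libraries. Within the first identifier range alone it was called lower in CAST/EiJ than in C57BL/6J (-0.54, adjusted p = 0.00315). Its within-group SD of 0.54 (log2 of CPM plus 0.5, over 12 degrees of freedom) was the widest among the 40 members above 1 CPM, whose median was 0.19 beside 0.13 over all 13046 such genes. Among the narrowest were Kcnk3 at 0.08 and Kcng2 at 0.09. Kcnab1, a cytoplasmic Kv1 beta subunit, rose in both strains over C57BL/6J, from 1.47 ± 0.346 CPM to 2.53 ± 0.426 in CAST/EiJ (0.77, SE 0.14) and 3.13 ± 0.55 in NZO/HlLtJ (1.08, SE 0.14).

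The rapid and slow delayed rectifiers, major repolarizing currents in larger mammals, differed moderately at the pore and strongly at an accessory subunit. Kcnh2, the ERG1 pore of the rapid current, was higher in CAST/EiJ at 77.4 ± 9.76 CPM than in C57BL/6J at 58.8 ± 6.84 and NZO/HlLtJ at 59.2 ± 11.3 (CAST/EiJ over C57BL/6J 0.4, SE 0.09, adjusted p = 0.0015), with overlapping libraries. Kcnq1, the pore of the slow current, fell from 36.5 ± 2.39 CPM in C57BL/6J to 30.0 ± 2.25 in NZO/HlLtJ (-0.29, SE 0.05, adjusted p = 0.000109), and no library of those strains overlapped. It overlaps the antisense transcript Kcnq1ot1. In CAST/EiJ the fall of Kcnq1 was 0.14 on the log2 scale (-0.14, SE 0.05, adjusted p = 0.016) and was lost without the second female C57BL/6J library on 10% fat. Kcne1, the accessory subunit that slows Kcnq1 (chromosome 16, 92346001 to 92359468, minus strand), ran from 2.18 through 5.06 to 11.3 CPM in C57BL/6J, from 0.683 through 0.981 to 1.32 in CAST/EiJ and from 2.16 through 2.86 to 3.77 in NZO/HlLtJ. CAST/EiJ lay below both others without overlap. Its log2 fold changes against C57BL/6J were -2.38 in CAST/EiJ (SE 0.15, adjusted p = 6.97e-11) and -0.8 in NZO/HlLtJ (SE 0.13, adjusted p = 0.000106). The NZO/HlLtJ value was 0.09 in one identifier range, where the C57BL/6J libraries were all male. Kcne4, another accessory subunit, was at 2.23 to 2.78 CPM on average and was not called.

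Kcnq5, a KCNQ pore better known from brain and smooth muscle (chromosome 1, 21398403 to 21961942, minus strand), was the reverse of Kcnv2. It ran from 8.89 through 11.4 to 15.6 CPM in CAST/EiJ, from 0.276 through 0.587 to 0.951 in C57BL/6J and from 0.475 through 0.698 to 0.789 in NZO/HlLtJ. All 8 CAST/EiJ libraries lay above every other library. The rise over C57BL/6J was 21.0-fold (log2 fold change 4.39, SE 0.12, adjusted p = 6.03e-16), and NZO/HlLtJ was not called (0.21, SE 0.15, adjusted p = 0.31).

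**Figure D3:**
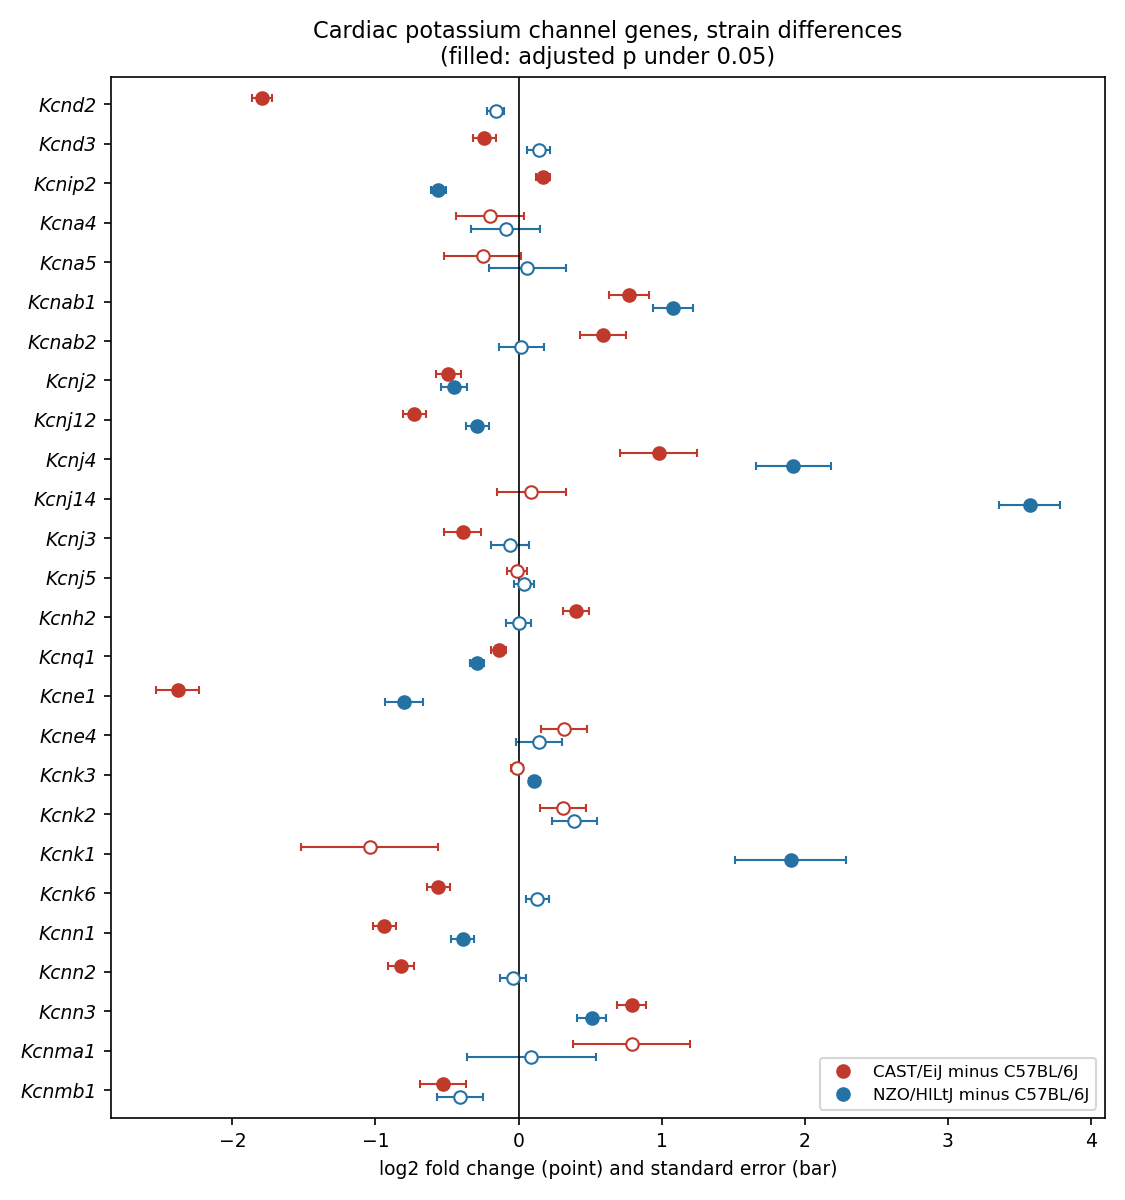
Log2 fold change against C57BL/6J (points) with its standard error (bars) for 26 cardiac channel genes grouped by the current they carry, in CAST/EiJ (red) and NZO/HlLtJ (blue); filled points passed an adjusted p of 0.05. Kcne1 and Kcnd2 lie furthest left in CAST/EiJ (-2.38 and -1.79), and Kcnj14 lies furthest right in NZO/HlLtJ (3.57).

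Kcnj2 and Kcnj12, inward rectifier pores that set the resting potential, were highest in C57BL/6J. Kcnj2, the main Kir2.1 pore of the heart, ran from 49.6 through 53.6 to 66.1 CPM in C57BL/6J, from 29.2 through 40.1 to 56.2 in CAST/EiJ and from 28.6 through 43.3 to 48.3 in NZO/HlLtJ. No NZO/HlLtJ library reached the lowest of C57BL/6J, whereas CAST/EiJ overlapped. The log2 fold changes were -0.49 in CAST/EiJ (SE 0.09, adjusted p = 0.00018) and -0.45 in NZO/HlLtJ (SE 0.09, adjusted p = 0.000911), and the test did not separate those strains from each other (0.04, adjusted p = 0.692). Kcnj12, the Kir2.2 pore, fell from 18 ± 2.13 CPM in C57BL/6J to 10.8 ± 1.2 in CAST/EiJ (-0.73, SE 0.08, adjusted p = 2.07e-07), with no overlap, and to 14.7 ± 2.44 in NZO/HlLtJ (-0.29, SE 0.08, adjusted p = 0.00771).

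Of the 8 inward rectifiers tested, 3 rose and 2 fell in NZO/HlLtJ against C57BL/6J, where 17.9% and 17.6% of all genes did. Kcnj14 and Kcnj4 were among the 3 that rose. Kcnj14, the Kir2.4 pore (chromosome 7, 45816461 to 45824756, minus strand), ran from 6.11 through 9.06 to 11.9 CPM in NZO/HlLtJ, from 0.276 through 0.672 to 1.48 in C57BL/6J and from 0.461 through 0.819 to 1.18 in CAST/EiJ. Every NZO/HlLtJ library was above every other, with a rise of 11.9-fold over C57BL/6J (log2 fold change 3.57, SE 0.21, adjusted p = 4.82e-10). Kcnj4, the Kir2.3 pore, averaged 0.261 ± 0.112 CPM in C57BL/6J, 0.51 ± 0.147 in CAST/EiJ and 1.02 ± 0.511 in NZO/HlLtJ (0.98 and 1.92 against C57BL/6J, adjusted p = 0.00392 and 8.64e-06). Of the ATP-sensitive channel genes kept out by the rule, all 4 were called in both comparisons with C57BL/6J. Over all genes 58.8% were called in CAST/EiJ and 35.5% in NZO/HlLtJ. The widest change among the 4 was that of the regulatory subunit gene Abcc9, at -0.73 in NZO/HlLtJ (adjusted p = 1.88e-10).

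The acetylcholine-activated channel, made of Kir3.1 (Kcnj3) and Kir3.4 (Kcnj5), is a channel of atrial and nodal cells, so its RNA was read beside atrial markers. Kcnj3 ran from 94.4 through 126 to 142 CPM in C57BL/6J, from 67.7 through 94.5 to 111 in CAST/EiJ and from 70.2 through 119 to 152 in NZO/HlLtJ. All strains overlapped. The fall in CAST/EiJ against C57BL/6J was 0.39 on the log2 scale (-0.39, SE 0.13, adjusted p = 0.0186), and was lost without the second female C57BL/6J library on 10% fat. The rise of 0.32 in NZO/HlLtJ over CAST/EiJ (adjusted p = 0.043) was kept in 7 of 34 other settings and was lost in 19 of the 24 fits with 1 library left out. Kcnj5 was at 86.3 ± 12.1, 85.2 ± 6.3 and 88.6 ± 10.7 CPM and was called in no strain comparison. In bulk tissue, fewer cells of a type and less RNA per cell cannot be told apart.

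From library to library within strains, both genes followed the atrial markers. Over 24 libraries centred on their strain means, log2 Kcnj3 and the log2 sum of 7 atrial markers had a Pearson r of 0.85 and a Spearman rho of 0.91 (permutation within strains, adjusted p = 0.00014 and 0.00028 over 28 relations). Without the 2 libraries farthest from the median of the atrial sum, r was 0.85. It was 0.88 in C57BL/6J, 0.89 in CAST/EiJ and 0.92 in NZO/HlLtJ, and 0.87, 0.93 and 0.72 in the 3 identifier ranges. For Kcnj5 r was 0.73 and rho 0.73 (permutation, adjusted p = 0.00131 and 0.00252), 0.69 without the 2 farthest libraries, 0.81, 0.5 and 0.85 in the strains and 0.75, 0.87 and 0.6 in the ranges. Kcnj3 and Kcnj5 had an r of 0.88 and a rho of 0.79 with each other (permutation, adjusted p = 0.00014 and 0.00042), 0.8 without 2 libraries, 0.95, 0.77 and 0.96 in the strains and 0.83, 0.91 and 0.87 in the ranges. The other 25 relations of the 28 did not pass an adjusted p of 0.05. Neither the centring nor the permutation took sex into account. In the first identifier range the atrial sum was 768 to 1050 CPM in females and 1410 to 2240 in males. In the other ranges the sexes overlapped. The part of sex in these relations was not tested. The smallest p these 100000 permutations could give was 1e-05.

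**Figure D4:**
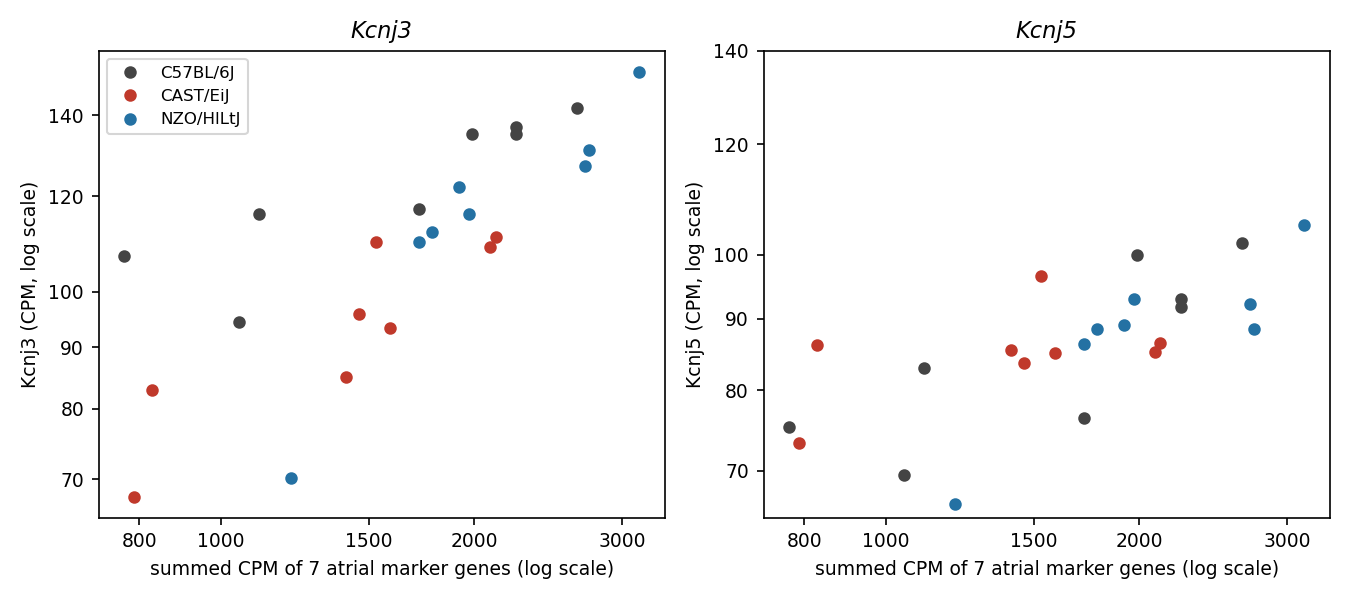
Kcnj3 (left) and Kcnj5 (right) in CPM against the summed CPM of 7 atrial marker genes, one point per library, coloured by strain, all axes logarithmic. Both genes climb with the atrial sum, which spans 768 to 3140 CPM, and the strains overlap along it.

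Since Kcnj3 and Kcnj5 moved together, their RefSeq promoter windows are shown for GRCm38.p6 (chr2:55435720-55436019, plus strand, and chr9:32344295-32344594, minus strand), with matches to CCAAT or GGGCGG on either strand in capitals.
Kcnj3 promoter: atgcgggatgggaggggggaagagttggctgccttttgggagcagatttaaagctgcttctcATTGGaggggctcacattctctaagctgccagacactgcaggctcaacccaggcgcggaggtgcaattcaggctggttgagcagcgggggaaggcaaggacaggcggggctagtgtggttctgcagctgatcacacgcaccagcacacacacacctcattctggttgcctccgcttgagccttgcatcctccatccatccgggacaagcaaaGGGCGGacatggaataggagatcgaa
Kcnj5 promoter: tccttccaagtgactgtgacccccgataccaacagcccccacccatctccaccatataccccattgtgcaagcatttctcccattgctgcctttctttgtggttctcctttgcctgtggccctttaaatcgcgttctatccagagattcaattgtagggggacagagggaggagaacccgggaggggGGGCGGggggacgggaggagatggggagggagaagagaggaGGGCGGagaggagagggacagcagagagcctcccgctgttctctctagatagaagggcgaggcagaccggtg
Kcnj3 had 1 CCAAT and 1 GGGCGG match, and Kcnj5 had 2 GGGCGG matches. A match is a run of letters and shows no binding.

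Two-pore channels, which stay open at rest, were steady at their most abundant member. Kcnk3 was at 229 ± 14.5 CPM in C57BL/6J, 227 ± 15.5 in CAST/EiJ and 247 ± 14.4 in NZO/HlLtJ. The NZO/HlLtJ rise over C57BL/6J of 0.11 (SE 0.04, adjusted p = 0.0413) was called in 15 of 34 other settings and was -0.02 in one identifier range, so it did not hold up. Kcnk6, known as TWIK-2, was lower in CAST/EiJ at 3.45 ± 0.375 CPM than in C57BL/6J at 5.09 ± 0.575 (-0.56, SE 0.08, adjusted p = 8.5e-06), without overlap, and was at 5.57 ± 0.471 in NZO/HlLtJ. Kcnk1, or TWIK-1, was higher in NZO/HlLtJ at 0.915 ± 0.397 CPM than in C57BL/6J at 0.23 ± 0.126 (1.9 on the log2 scale, SE 0.39, adjusted p = 0.000832). Kcnk2, the stretch-sensitive TREK-1, was at 1.7 ± 0.437 CPM in C57BL/6J, 2.06 ± 0.319 in CAST/EiJ and 2.22 ± 0.711 in NZO/HlLtJ, with no call between strains (NZO/HlLtJ over C57BL/6J 0.39, SE 0.16, adjusted p = 0.0588). With the identifier range as a block that difference was called (0.51, adjusted p = 0.0287), as it was without the first female C57BL/6J library on either diet or the first male NZO/HlLtJ library on 44% fat (0.45 to 0.49). The difference of CAST/EiJ over C57BL/6J was called without the first female C57BL/6J library on 10% fat (0.4, adjusted p = 0.0441).

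The small-conductance calcium-activated channels split by gene. Kcnn1 was 11.9 ± 0.85 CPM in C57BL/6J, 6.17 ± 0.491 in CAST/EiJ and 9.08 ± 1.22 in NZO/HlLtJ; no 2 strains overlapped (-0.94 and -0.39 against C57BL/6J, SE 0.08 each, adjusted p = 5.61e-09 and 0.000602). Kcnn2, the main SK2 channel of atria, fell in CAST/EiJ from 12.3 ± 1.36 to 6.96 ± 1.35 CPM (-0.82, SE 0.09, adjusted p = 2.32e-07), without overlap, and was at 11.9 ± 0.849 in NZO/HlLtJ. Kcnn3, the SK3 channel, rose instead, from 3.32 ± 1.13 in C57BL/6J to 5.5 ± 0.83 in CAST/EiJ and 4.59 ± 0.874 in NZO/HlLtJ (0.79 and 0.51, SE 0.1 each, adjusted p = 2.6e-06 and 0.000745). Kcnma1, the large-conductance pore, was near 0.1 CPM. Its accessory gene Kcnmb1, a smooth muscle gene, fell from 2.39 ± 0.765 CPM in C57BL/6J to 1.62 ± 0.325 in CAST/EiJ (-0.53, adjusted p = 0.00752), but was at 0.02 in one identifier range. The sodium-activated Kcnt2 was lowest in CAST/EiJ at 2.54 ± 0.532 CPM and highest in NZO/HlLtJ at 6.04 ± 0.741 (NZO/HlLtJ over CAST/EiJ 1.26, SE 0.1, adjusted p = 3.06e-09), and its relative Kcnt1 rose over C57BL/6J in both strains (1.21 and 0.81).

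Several members known from nerve ran lowest in CAST/EiJ and highest in NZO/HlLtJ. Kcna1 and Kcna2, axonal Kv1 pores, averaged 2.61 and 5.12 CPM in C57BL/6J, 1.52 and 2.3 in CAST/EiJ and 3.52 and 6.95 in NZO/HlLtJ. Their log2 fold changes against C57BL/6J were -0.78 and -1.13 in CAST/EiJ and 0.45 for each gene in NZO/HlLtJ, all called. The Kv3 pore Kcnc1, of fast-firing neurons, was at 1.19 ± 0.511 CPM in C57BL/6J, 0.127 ± 0.0678 in CAST/EiJ and 2.57 ± 0.708 in NZO/HlLtJ (-3.24 and 1.14, adjusted p = 4e-09 and 0.000123). Its relative Kcnc2 was at 0.892 ± 0.296, 0.0631 ± 0.0533 and 1.57 ± 0.416 CPM (-3.86 and 0.82); the NZO/HlLtJ call (adjusted p = 0.027) was lost with the identifier range as a block (0.7, adjusted p = 0.123) and in 7 of 24 fits with 1 library left out. Kcnip3 went the same way, at 1.36, 0.66 and 2.35 CPM.

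Schwann cell and nerve markers were read beside these genes. The summed level of 8 such markers (Sox10, Cdh19 and others) was 14.2 to 21.2 CPM in C57BL/6J, 11.7 to 20.1 in CAST/EiJ and 23.1 to 28.2 in NZO/HlLtJ. The sums of C57BL/6J and CAST/EiJ thus overlapped, and those of NZO/HlLtJ lay above both. Of the 7 tested, 5 fell and 1 rose in CAST/EiJ against C57BL/6J, where 29.7% and 29.1% of all genes did. In NZO/HlLtJ against C57BL/6J 5 rose, where 17.9% of all genes did. The median log2 fold change of the 7 against C57BL/6J was -0.48 in CAST/EiJ and 0.73 in NZO/HlLtJ. Cdh19 changed by -1.27 and 0.73 and Sox10 by -0.48 and 0.79, beside -3.24 and 1.14 for Kcnc1. The part of these cells in the result was not tested. Fibroblast markers also differed, with all 6 higher in NZO/HlLtJ than in C57BL/6J (845 to 1090 CPM summed, against 663 to 714).

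Members at the edge of detection showed wide fold changes on few reads. Kcnip1, a KChIP subunit, had 0 counts in all 8 CAST/EiJ libraries, against 2 to 10 counts in C57BL/6J and 1 to 7 in NZO/HlLtJ. A floor of 3 counts per library is 0.0745 CPM, and the mean of Kcnip1 was 2.19-fold that floor in C57BL/6J and 1.15-fold in NZO/HlLtJ. Those means rest on few counts themselves, so the ratios are not lower bounds of the difference. Kcnf1, a silent subunit, was at 0.461 ± 0.273 CPM in NZO/HlLtJ, 0.034 ± 0.0415 in C57BL/6J and 0.0195 ± 0.0246 in CAST/EiJ, and Kcnh6, an ERG gene, at 0.248 ± 0.108, 0.0328 ± 0.025 and 0.0531 ± 0.0496 in the same order. Both were called higher in NZO/HlLtJ (adjusted p = 0.000251 and 0.000592 against C57BL/6J). For Kcnf1 and Kcnh6, only NZO/HlLtJ libraries had enough reads for the filter on low counts. For Kcnip1 only C57BL/6J libraries did, and for Kcnh3, called higher in CAST/EiJ, only CAST/EiJ libraries did. These genes thus entered the test through the strain in which they were high, and the calls are not independent of that choice. Their calls are part of the member counts given above. Kcnh1 was called higher in CAST/EiJ and NZO/HlLtJ than in C57BL/6J at a mean below 0.5 CPM (1.11 and 0.8), and the NZO/HlLtJ call was lost with the identifier range as a block (0.72, adjusted p = 0.0592). Kcnc4 was called lower in NZO/HlLtJ (-1.02, adjusted p = 0.0469), a call kept in 16 of 34 other settings.

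The pumps and transporters that move potassium against its gradient were a further fixed list of 16 genes, all tested. In CAST/EiJ against C57BL/6J 6 rose and 3 fell, in NZO/HlLtJ against C57BL/6J 6 rose and 1 fell, and in NZO/HlLtJ against CAST/EiJ 5 rose and 5 fell. In the same order, 58.8%, 35.5% and 60.3% of all genes were called in either direction. Atp1b1, a beta subunit of the sodium pump, rose over C57BL/6J by 0.73 in CAST/EiJ and 0.29 in NZO/HlLtJ (adjusted p = 2.84e-10 and 0.000133).

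No member was called for diet. The question was whether 44% fat changed a channel gene, over the 3 strains or in one. Over the 3 strains 0 of 66 members passed, where 0.157% of all genes did; in C57BL/6J 0 passed beside 0.0407%, and in CAST/EiJ and NZO/HlLtJ 0 passed beside 0% and 0%. Before adjustment, 6, 5, 3 and 5 of the 66 members had p under 0.05 in these fits, beside 8.81%, 5.62%, 6.61% and 7.17% of all genes, and DESeq2 called 0 as well. The smallest p over the 3 strains was that of Kcnn3, which ran from 2.6 through 3.97 to 5.59 CPM on 10% fat and from 1.91 through 4.96 to 7.22 on 44% fat (log2 fold change 0.25, SE 0.08, adjusted p = 0.357). Kcnh2 averaged 69.5 ± 13.5 CPM on 10% fat and 60.8 ± 10.6 on 44% fat (SD, n = 12 across strains; -0.19, SE 0.07, adjusted p = 0.461). Kcnmb1 was at 2.15 ± 0.593 and 1.71 ± 0.575 CPM (-0.31, SE 0.13, adjusted p = 0.476). The most abundant members were close between diets: Kcnk3 was at 234 ± 19.9 and 235 ± 14 CPM (0 on the log2 scale, SE 0.03), and Kcnip2 at 120 ± 27.6 and 116 ± 25.3 (-0.03, SE 0.04).

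Within strains the lowest p belonged to Kcnv2 in C57BL/6J, at 17.5 ± 2.42 CPM on 10% fat and 22.2 ± 3.62 on 44% fat (0.35, SE 0.12, adjusted p = 0.631). Kcnip2 in C57BL/6J ran from 120 to 145 CPM on 10% fat and 112 to 124 on 44% fat (-0.17, SE 0.07, adjusted p = 0.808), and Kcnk2 from 0.923 to 1.68 and 1.69 to 2.38 (0.56, SE 0.22, adjusted p = 0.81). In CAST/EiJ the smallest p belonged to Kcnd3os (2.38) and Kcnh6 (2.96), with adjusted p of 0.624 and 0.656. Both rest on few reads there, at 0 to 0.211 and 0 to 0.123 CPM. Diet in CAST/EiJ was partly tied to identifier range, since the second range held only its libraries on 10% fat and the third only those on 44% fat. In NZO/HlLtJ the smallest p belonged to Kcnj12, Kcnn3 (0.36) and Kcng2 (-0.15). Kcnj12 was at 16.3 ± 2.23 CPM on 10% fat and 13.2 ± 1.63 on 44% fat (-0.3, SE 0.11, adjusted p = 0.616). None passed, and with 4 libraries per diet and strain changes of this size were not resolved.

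No member was called for a difference of the diet effect between strains. The share of all genes called was 0.00581% for NZO/HlLtJ minus C57BL/6J and 0% for both other pairs, with 0 members in each. At an unadjusted p under 0.05 there were 4 members in NZO/HlLtJ minus C57BL/6J, among them Kcnc1 (1.08) and Kcng2 (-0.22). There were 7 in CAST/EiJ minus C57BL/6J, led by Kcnd3os (2.6), Kcnc1 (1.49) and Kcnh6 (3.91), and 6 in NZO/HlLtJ minus CAST/EiJ, among them Kcnh6 (-3.3) and Kcnh1 (-1.16). Kcnd3os and Kcnh6 had few reads in CAST/EiJ. The shares of all genes at that p were 4.75%, 6.53% and 4.64% in the same order. The adjusted p of these was 1, 0.745 and 0.973 in the same order of comparisons.

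No member was called between the sexes either, although Kcne1 came near. Over the 3 strains edgeR called 0 of 66 members, beside 0.372% of all genes, while 8 had an unadjusted p under 0.05, beside 8.95% of all genes. Kcne1 in C57BL/6J was at 6.59, 11.3, 6.26 and 7.06 CPM in the 4 females and at 3.85, 3.35, 3.39 and 2.18 in the 4 males. The sexes did not overlap there. In CAST/EiJ females had 1.05 ± 0.247 CPM and males 0.848 ± 0.156 (SD, n = 4), and in NZO/HlLtJ 2.89 ± 0.751 and 2.92 ± 0.733, with overlap in both. The log2 difference of female over male was 0.51 over the 3 strains (SE 0.12, adjusted p = 0.0673). DESeq2 called it (0.52, adjusted p = 0.0118), together with Kcnj2 (0.26, 0.0344) and Kcnn3 (0.34, 0.0491), and edgeR called Kcne1 with the identifier range as a block (0.53, 0.0244).

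**Figure D5:**
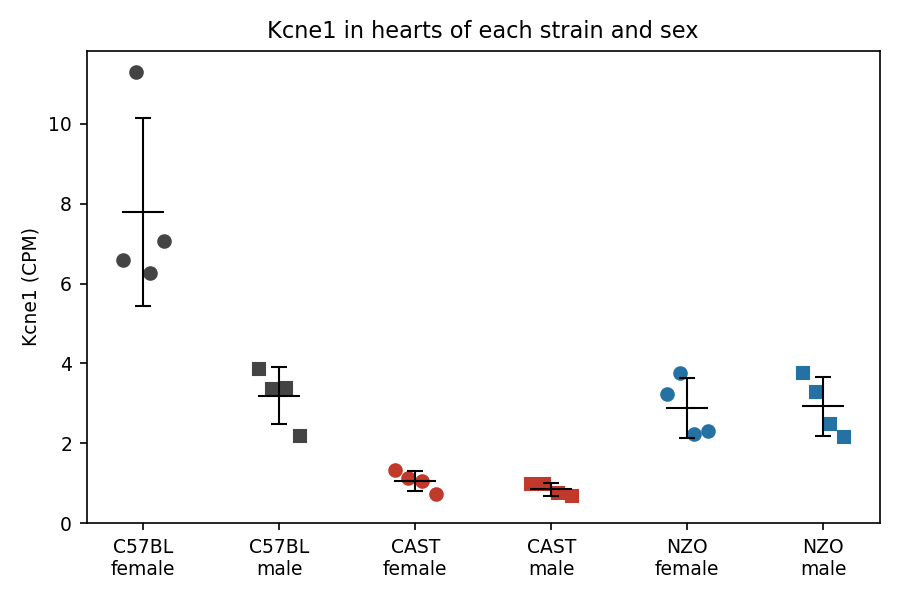
Kcne1 level (CPM, linear axis from 0) in each library by strain and sex (4 points each; black bars, mean and SD). The 4 C57BL/6J females lie between 6.26 and 11.3 CPM, above the 4 males at 2.18 to 3.85, and females and males overlap in the other strains.

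The difference between strains in this sex effect was tested directly. For Kcne1 it was -1.28 in NZO/HlLtJ minus C57BL/6J (SE 0.27, unadjusted p = 0.000136, adjusted p = 0.467) and -0.97 in CAST/EiJ minus C57BL/6J (SE 0.29, adjusted p = 0.711). Neither passed over all genes, and DESeq2 called the first (-1.29, adjusted p = 0.0435). In C57BL/6J, sex was partly tied to identifier range, since the second range held only its males and the third only its females. Over the 3 pairs of strains the share of all genes called was 0%, 0% and 0%, with 0 members in each. At an unadjusted p under 0.05 there were 5 members in NZO/HlLtJ minus C57BL/6J, 6 in CAST/EiJ minus C57BL/6J and 7 in NZO/HlLtJ minus CAST/EiJ, beside 4.63%, 5.95% and 8.48% of all genes. The next members were Kcnn3 (-0.65) and Kcnt1 (1.16) in CAST/EiJ minus C57BL/6J, Kcng2 (0.23) and Kcnj5 (0.33) in NZO/HlLtJ minus C57BL/6J, and Kcnq5 (-0.7), Kcna1 (0.63) and Kcng2 (0.22) in NZO/HlLtJ minus CAST/EiJ. Of the partner list, the calcium-activated channel subunit gene Lrrc55 was called higher in females (1.11, adjusted p = 0.0398).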

How the data were processed

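The authors deposited 2 gene tables for the 24 libraries: expected counts per gene, and log2 variance-stabilized values. Per the labels' protocols, polyA RNA was made into libraries with the KAPA mRNA HyperPrep kit and read as pairs; per the submitters' processing notes, GRCm38 and DESeq2 were used, with no version or role. The aligner, the counter, the use of strand and whether CAST/EiJ and NZO/HlLtJ reads were placed on their own genomes were not given in the sources used here, so how a C57BL/6J-derived reference bears on the strain differences was not tested.

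Of the deposited values, 19.3% were not whole (tolerance 1e-06), and each listed gene was above 0 in at least 13 libraries. Expected counts were rounded, filtered with filterByExpr (count minimum 10, total minimum 15) to 17203 genes, scaled by TMM (factors 0.954 to 1.06) and fitted in edgeR 4.0.16 (R 4.3.3) by the quasi-likelihood test with 12 group means and 14 contrasts. Calls were made at a p under 0.05 after Benjamini-Hochberg adjustment over the tested genes. CPM are rounded counts over the TMM-scaled size of the tested genes; lengths are exonic bases of GENCODE M21. Nothing says that libraries are separate animals, so p-values measure the spread between these libraries. Replicates were numbered in accession order and pair nothing. Fitting was tested on simulated data.

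The members and the lists of partners, pumps and markers were chosen with earlier results of these data known. Named were the 27 cardiac channel genes of a fixed list, the strain calls of smallest p (up to 8 a direction) or largest change (up to 5, from 0.5 CPM), and otherwise the 3 members of smallest p; a few more were named after their values were seen (Kcnd1, Kcng2, Kcna1 and Kcnip1). Alternatives were DESeq2 1.42.0, limma 3.58.1 (voom, and trend on the deposited log2 values), RLE scaling, no filter, identifier range as a block or taken alone, fewer strains, each library left out, and, added after the data were seen, without the 2 libraries rich in adipocyte or endothelial markers. Promoters are from RefSeq (GRCm38.p6). Strain-specific sequence was not analysed here, and the results of a few listed genes are counted but not reported by name.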

Additional observations from a re-analysis of the deposited data

Results flagged for a closer look

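For 45 of the members chosen by the naming rule, 135 groups of 8 libraries of 1 strain were searched for a library far from the others. In 6 of them the gap of the extreme library to its neighbour was past the 95% critical value of Dixon's test (gap over range), which chance alone passes in about 1 group in 20. The second male NZO/HlLtJ library on 44% fat stood out for 3 genes. In it Kcna5 was 35.2 CPM (next 21.9, lowest 10.8), Kcnk2 was 3.84 CPM (next 2.45, lowest 1.66) and Kcnj4 was 2.15 CPM (next 1.24, lowest 0.6).

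The first male CAST/EiJ library on 10% fat, the one richest in adipocyte markers, had 3.77 CPM of Kcnt2, with the next at 2.57 and the lowest at 2.04. On few reads, Kcnma1 was 0.324 CPM in the first female NZO/HlLtJ library on 10% fat (next 0.133) and Kcnh3 was 0.164 CPM in the first female C57BL/6J library on 10% fat (next 0.0633). Their cause was not tested.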

How the results depend on the processing

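No paired analysis was possible because the labels give no replicate numbers and the numbers used here follow accession order. Over the 32 alternatives that used all identifier ranges, 36 of 44 calls held in CAST/EiJ against C57BL/6J, 36 of 43 in NZO/HlLtJ against CAST/EiJ and 21 of 26 in NZO/HlLtJ against C57BL/6J. With each library left out in turn these counts ran from 40 to 45, 39 to 43 and 23 to 27, and the count for sex from 0 to 1. Within single ranges, which hold fewer libraries, CAST/EiJ against C57BL/6J gave 17 calls in range 2 and 15 in range 3, NZO/HlLtJ against C57BL/6J gave 6 and 8, and NZO/HlLtJ against CAST/EiJ gave 19 and 26. For NZO/HlLtJ against C57BL/6J, range 2 turned the sign of Kcne1 (0.09) and Kcnk3 (-0.02); for CAST/EiJ against C57BL/6J, range 3 turned that of Kcnmb1 (0.02). For sex, DESeq2 called 3 members, the range block 1, limma on the deposited values 1 and range 1 alone 1 (Kcnj3, -0.41); without the first female C57BL/6J library on 44% fat Kcnv2 was called (0.53), and Kcne1 was called without the second such library (0.56), the first male C57BL/6J library on 10% fat (0.59) or the second female CAST/EiJ library on 44% fat (0.56). For the sex effect of NZO/HlLtJ minus C57BL/6J, DESeq2 called 1. The cause was not tested. Diet gave 0 calls under all alternatives. Members below 1 CPM rest on few reads, and small changes there were not detectable.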

Other observations

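Kcna5, whose level varied most between libraries of one group, followed a clock gene. The heart keeps a daily rhythm, and Per1 is a core gene of the clock; the hour at which tissue was taken is not in the labels. Per1 ran from 12.6 to 51.9 CPM in C57BL/6J, 22.9 to 86.8 in CAST/EiJ and 26.2 to 76.1 in NZO/HlLtJ. Over the 24 libraries centred on strain means, log2 Kcna5 and log2 Per1 had a Pearson r of 0.86 and a Spearman rho of 0.86 (permutation within strains, adjusted p = 0.00189 and 0.00378). This relation was looked for after the spread of Kcna5 had been seen, and it was the one of 189 (7 clock genes by 27 channel genes) that passed an adjusted p of 0.05. Without the 2 libraries farthest from the median of Per1, r was 0.85; it was 0.78 in C57BL/6J, 0.87 in CAST/EiJ and 0.98 in NZO/HlLtJ, and 0.57, 0.75 and 0.97 in the identifier ranges. The next was Nr1d1 and Kcna5, with an r of -0.62 and a rho of -0.54 (permutation, adjusted p = 0.0661 and 0.318). With the other clock genes, Kcna5 had an r of 0.52 for Per2, 0.51 for Cry1, -0.2 for Arntl, -0.06 for Clock and -0.05 for Cry2. Whether time of day differed between libraries was not tested.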
